A study of Homo sapiens with 8 samples.

Results

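The 10 snoRNA host genes SNHG8, SNHG1, SNHG5, SNHG6, SNHG7, SNHG12, SNHG15, SNHG16, GAS5 and ZFAS1 were followed by symbol through the deposited tables, in which 36779 genes were listed and 17869 were abundant enough to test. All 10 were listed and all 10 were tested. They were chosen by name for their common gene structure, and SNHG8 was put first on its measured CPM, which had been lower with both circular RNAs (circRNAs) in both cell lines. The circRNA-against-control values therefore served in the choice. They are given below as a description, without p-values, and nothing is supported by them. The cells were PC3 and DU145, human prostate cancer cell lines grown from metastases. Each line was transfected with a plasmid for circ0003553 (the arm titled RCAN3), a plasmid for circ0004592 (the arm titled STK3), or, once in each arm, a negative control plasmid. That made 8 libraries of total RNA depleted of ribosomal RNA, with 1 library of each circRNA and 2 control libraries per line. The labels do not say if the 2 arms came from separate cultures, so p-values measure only the spread between these libraries.

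A snoRNA host gene carries small nucleolar RNAs (snoRNAs) in its introns. Splicing of the host transcript frees the introns, which are trimmed to snoRNAs that guide chemical changes of ribosomal RNA, box C/D snoRNAs guiding ribose methylation and H/ACA snoRNAs guiding pseudouridylation. The spliced exons of many noncoding hosts carry short reading frames and are destroyed by nonsense-mediated decay (NMD), so the level of the spliced RNA depends on its decay as well as on its transcription. Many hosts, coding and noncoding, start transcription at a C within a run of pyrimidines, the 5′ terminal oligopyrimidine (5′TOP) start that they share with ribosomal protein genes. Several of the noncoding hosts are studied in cancer as long noncoding RNAs in their own right.

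SNHG8 lies on the plus strand of chromosome 4 (118278709 to 118279823, hg38, 923 exonic bases in the tables) and hosts the H/ACA snoRNA SNORA24. RefSeq (GRCh38.p14) start-site sequences were matched by symbol for 8 of the 10 genes, those other than SNHG6 and SNHG15. They are shown because the start is where the hosts resemble the 5′TOP genes. Each stretch runs from 20 bases before the annotated start to 30 bases from it, 5′ to 3′ on the strand of the gene. Capitals mark CTTT where it begins within 10 bases on either side of the start.
SNHG8, chr4:118278742-118278791, plus strand: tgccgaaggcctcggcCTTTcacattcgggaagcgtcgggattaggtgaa
SNHG5, chr6:85678704-85678753, minus strand: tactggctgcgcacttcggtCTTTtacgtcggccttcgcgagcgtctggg
ZFAS1, chr20:49278622-49278671, plus strand: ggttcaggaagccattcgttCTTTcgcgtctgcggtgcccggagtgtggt
SNHG12, chr1:28581844-28581893, minus strand: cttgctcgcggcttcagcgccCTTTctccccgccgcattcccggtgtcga
SNHG16, chr17:76557744-76557793, plus strand: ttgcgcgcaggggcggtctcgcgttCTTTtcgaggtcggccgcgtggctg
SNHG1, chr11:62855856-62855905, minus strand: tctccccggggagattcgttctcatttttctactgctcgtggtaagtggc
SNHG7, chr9:136728155-136728204, minus strand: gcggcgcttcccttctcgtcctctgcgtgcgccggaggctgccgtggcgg
GAS5, chr1:173869016-173869065, minus strand: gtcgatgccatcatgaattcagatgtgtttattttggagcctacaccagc

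The letters CTTT stood near the start of 5 of the 8 genes, against 9.07% of 35116 promoters in the same table. Its reverse complement AAAG stood near the start of 0 of the 8, against 6.39% of the promoters. A C at the annotated start itself was found in 6 of the 8, against 14.7% of promoters, the other two being SNHG16 with G and GAS5 with A. The CTTT of SNHG8 began at position -4 and lay wholly before its annotated start. It began at position 1 in SNHG5 and ZFAS1, 2 in SNHG12 and 6 in SNHG16. The annotated starts of GAS5 and SNHG16 lay outside the spans that the deposited table gives for these genes. These matches describe letters in an annotated window and were not mapped in these cells.

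SNORA24, printed to show the RNA that the SNHG8 transcript carries, was listed in the tables as a gene of its own. Its 131 bases (GENCODE v29) end in the ACA box of its class, in capitals, 3 bases before the 3′ end.
SNORA24, chr4:118279190-118279320, plus strand: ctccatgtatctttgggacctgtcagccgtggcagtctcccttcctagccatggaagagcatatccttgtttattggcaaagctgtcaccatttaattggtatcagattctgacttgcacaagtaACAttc
In the table the SNORA24 stretch lies inside an annotated exon row of SNHG8. SNORA24 itself had 0 to 11 counts per library, too few to test.

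Total counts per library were 33444940 to 49926342. SNHG8 had 415 to 1553 counts. Levels are in CPM, which divides counts by the TMM-corrected size of each library. CTNNA1, which PC3 is described as lacking, was low but not at 0 there, at 3.87 and 4.18 CPM in the PC3 controls against 392 and 401 CPM in DU145 controls. The prostate marker KLK3 had 0.0303 CPM in 1 PC3 library and 0 counts in the other 7 libraries, and the epithelial keratins KRT8 and KRT18 were above 100 CPM in all 8 libraries. The CPM of RCAN3, the gene that gives circ0003553, was 1.35-fold that of the same arm's control in PC3 and 1.77-fold in DU145. STK3, the gene of circ0004592, was 2.13-fold and 1.29-fold its control in the same lines. Counts per gene do not separate circular from linear RNA, and the part of the plasmids in these counts was not tested.

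SNHG8 was lower with each circRNA in each line, by about the same proportion in all 4 pairs. PC3 had 27.1 CPM with circ0003553 and 28.8 CPM with circ0004592, against 41.6 and 43.3 CPM in the controls of the RCAN3 and STK3 arms. DU145 had 13.9 CPM with circ0003553 and 12.6 CPM with circ0004592, against 22.1 and 20.7 CPM in the same controls. In neither line did a circRNA library reach the lower of its controls.

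Against the control of its own arm, the SNHG8 level in PC3 was 0.651-fold with circ0003553 and 0.665-fold with circ0004592. The 95% Clopper-Pearson intervals of the read pairs, carried over to the ratio, were 0.577 to 0.733 and 0.592 to 0.747. In DU145 it was 0.631-fold with circ0003553 (0.550 to 0.725) and 0.610-fold with circ0004592 (0.514 to 0.724). These intervals cover counting error only, since each is 1 library against 1. The 4 intervals overlap one another, which is no test of a difference in size between circRNAs or lines. The mean of both circRNA libraries was 27.9 ± 1.20 CPM in PC3 against 42.4 ± 1.18 CPM in its controls, and 13.3 ± 0.93 CPM in DU145 against 21.4 ± 0.97 CPM (SD, n = 2 each).

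**Figure D1:**
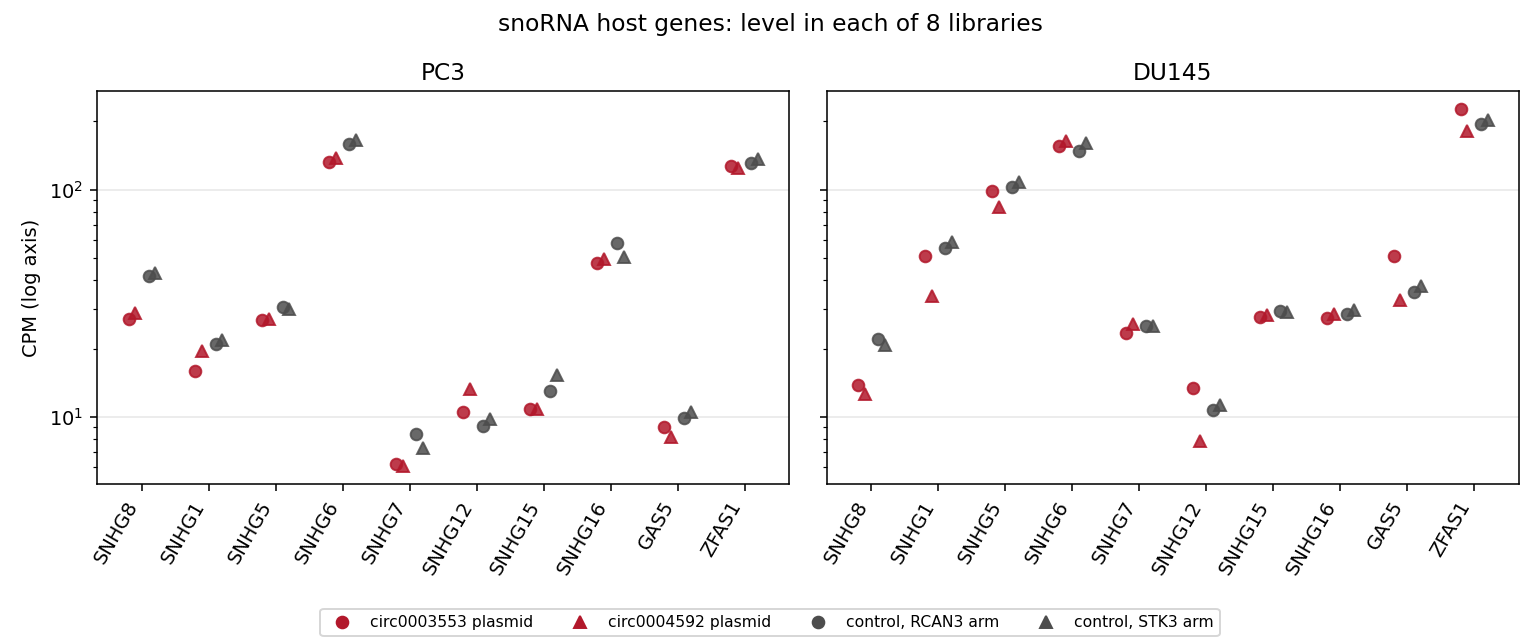
Level of the 10 genes in each of the 8 libraries, in CPM on a log axis, PC3 on the left and DU145 on the right. Red points are circRNA libraries and grey points control libraries, circles the RCAN3 arm and triangles the STK3 arm. For SNHG8 the red points, at 12.6 to 28.8 CPM, lie under the grey points of the same line.

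Among the hosts of box C/D snoRNAs, SNHG1, SNHG5 and SNHG16 were also lower in all 4 pairs, though by unequal amounts. SNHG1 hosts a group of snoRNAs with SNORD22 at its head. It had 16.0 and 19.6 CPM with circ0003553 and circ0004592 in PC3, against 21.0 and 21.8 CPM in its controls. In DU145 the SNHG1 level was 51.1 CPM with circ0003553 and 34.0 CPM with circ0004592, against 55.7 and 58.9 CPM. The low value was that of the DU145 circ0004592 library, at 0.577-fold its control (counting interval 0.521 to 0.640), next to 0.610-fold for SNHG8 in the same pair.

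SNHG5, host of the SNORD50 pair, had 26.6 and 27.0 CPM with the circRNAs against 30.7 and 29.8 CPM in PC3 controls. DU145 had 99.3 and 84.2 CPM of SNHG5 with the circRNAs, against 103 and 109 CPM. Again the DU145 circ0004592 library was the lowest of its line, at 0.775-fold its control (0.723 to 0.830). SNHG16, host of the SNORD1 family, had 47.8 and 49.4 CPM against 58.3 and 50.7 CPM in PC3, and 27.3 and 28.4 CPM against 28.5 and 29.7 CPM in DU145. The circ0004592 library in PC3 was at 0.975-fold its own control, and those of circ0003553 and circ0004592 in DU145 were at 0.960-fold and 0.958-fold.

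SNHG6, host of SNORD87, was lower in PC3 and not in DU145. PC3 had 132 and 139 CPM of SNHG6 with the circRNAs against 159 and 165 CPM in controls, without overlap. DU145 had 155 and 165 CPM with the circRNAs, within and just above the 148 and 160 CPM of its controls. GAS5 accumulates in growth-arrested cells and hosts 10 of the listed C/D snoRNAs. It had 9.03 and 8.16 CPM in PC3 against 9.92 and 10.5 CPM in controls. In DU145 the circRNA libraries fell on either side of the controls, at 51.1 CPM with circ0003553 and 32.6 CPM with circ0004592, against 35.4 and 37.9 CPM.

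ZFAS1, host of the SNORD12 family, was after SNHG6 the most abundant of the 10 per length in both lines. It had 127 and 125 CPM with the circRNAs in PC3 against 131 and 137 CPM. In DU145 the ZFAS1 level was 226 CPM with circ0003553 and 182 CPM with circ0004592, against 196 and 204 CPM. As with GAS5, the circ0003553 library was above both DU145 controls and the circ0004592 library below both.

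The other hosts of H/ACA snoRNAs were SNHG7, SNHG12 and SNHG15. SNHG7, host of SNORA17A and SNORA17B, had 6.22 and 6.07 CPM in PC3 against 8.39 and 7.33 CPM, and 23.5 and 25.6 CPM in DU145 against 25.2 and 25.3 CPM. The SNHG15 level, from the host of SNORA9, was 10.8 CPM with either circRNA in PC3 against 13.02 and 15.3 CPM, and 27.6 and 28.1 CPM in DU145 against 29.3 and 29.02 CPM. Both genes were thus lower in PC3 without overlap, and near their controls in DU145.

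SNHG12 hosts SNORA61, SNORA44, SNORA16A and the C/D snoRNA SNORD99, and was the only one of the 10 above its controls in PC3. It had 10.5 and 13.3 CPM with the circRNAs in PC3, against 9.17 and 9.84 CPM. In DU145 it had 13.4 CPM with circ0003553 and 7.83 CPM with circ0004592, against 10.7 and 11.3 CPM. The SNHG12 fold was 1.35 with circ0004592 in PC3 (1.10 to 1.65) and 0.694 with the same circRNA in DU145 (0.554 to 0.868).

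**Figure D2:**
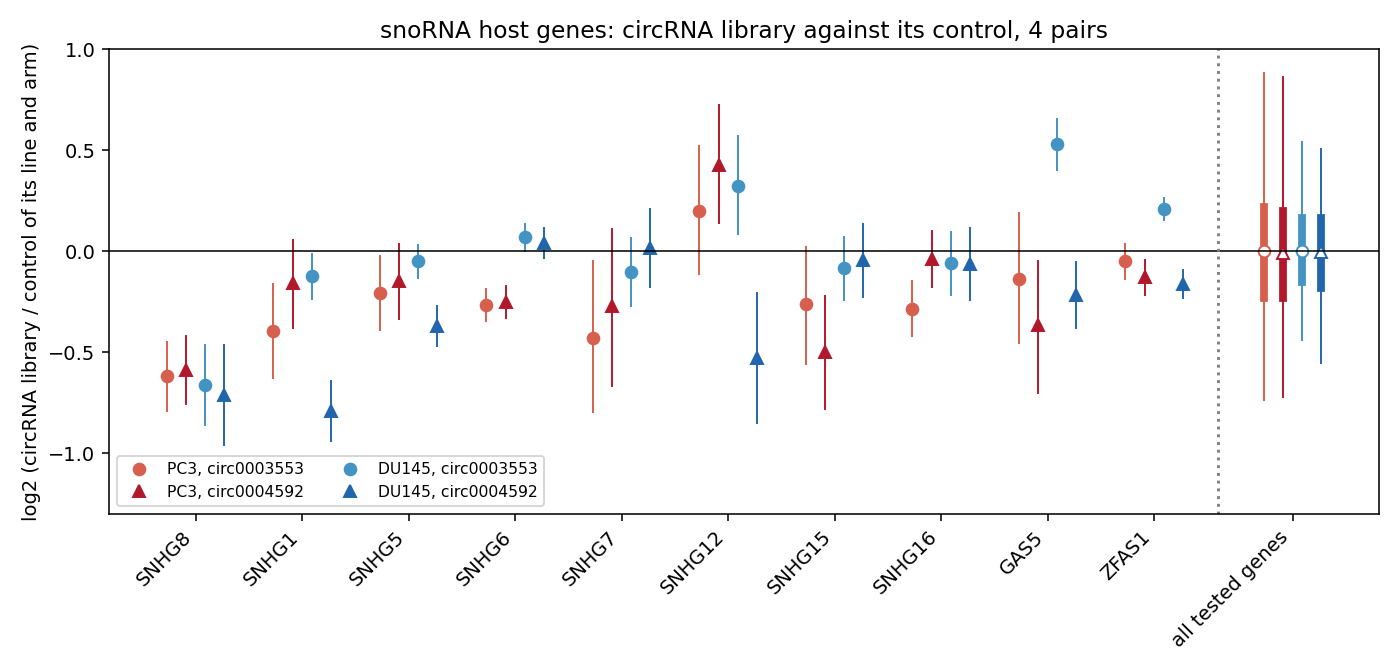
log2 ratio of each circRNA library to the control of its line and arm, for the 10 genes and for all tested genes. Lines through the points of single genes are 95% counting intervals, and for all tested genes the open symbol is the median, the thick line the interquartile range and the thin line the 5th to 95th percentile. SNHG8 has all 4 points between -0.71 and -0.59, while SNHG12 and GAS5 have points on both sides of 0.

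Set against the whole table, 9 of the 10 had both PC3 circRNA libraries below both controls, against 31.7% of tested genes, and 1, SNHG12, had both above, against 30.9%. In DU145, 5 of the 10 (SNHG8, SNHG1, SNHG5, SNHG15 and SNHG16) had both circRNA libraries below both controls, against 19.9% of tested genes, and 0 had both above, against 18.7%. All 4 circRNA libraries were thus below both controls of their line for these 5, against 6.74% of tested genes, and the 5 were lower in all 4 pairs, against 9.88%. Lower by at least 0.5 on the log2 scale in all 4 pairs was SNHG8 alone of the 10, and 14 tested genes in all (0.0783%). The median log2 fold of the 10 was -0.26 with circ0003553 and -0.21 with circ0004592 in PC3, against 0.00 and -0.01 over all tested genes. In DU145 it was -0.05 with circ0003553 and -0.19 with circ0004592, against 0.00 and 0.00. The genes were chosen with these folds known. The pair folds used the control of the same arm only, while the counts below or above both controls used the controls of both arms.

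All tested genes were also fitted over the 8 libraries together. The shared spread of this fit includes the difference between the 2 circRNAs of a line. Within each line, the 2 circRNA libraries were compared with the 2 controls (edgeR quasi-likelihood test, adjusted over all tested genes, threshold 0.05). Since this contrast served in choosing the 10 genes, their place in it is a description and no test of them, and nothing is read from the counts. On the low side in PC3, 3 of the 10 were past the threshold, where 9.19% of tested genes were. They were SNHG8 with a log2 fold of -0.60, SNHG15 with -0.39 and SNHG6 with -0.26. In DU145 it was SNHG8 alone, with -0.69, where 0.515% of tested genes were. On the high side there were 0 of 10 in both lines, against 11.2% of tested genes in PC3 and 0.532% in DU145. In DU145 SNHG8 was no longer past the threshold without the control of the RCAN3 arm (-0.63) or without that of the STK3 arm (-0.73). SNHG6 was not past it in PC3 without any 1 of the 4 PC3 libraries (-0.31 to -0.24), nor SNHG15 without either circRNA library (-0.40 each) or the STK3-arm control (-0.29).

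The interaction term compares the folds that served in the choice, so for the chosen genes it is a description and no test. The circRNA response differed between the lines for 0 of the 9 genes other than SNHG8 by the interaction term of edgeR. The same held by DESeq2 and by limma on RPKM. The background was 4.9% of tested genes with a lower and 7.08% with a higher response in PC3. At an unadjusted p under 0.05 there were 2, SNHG6 and SNHG15. SNHG6 had a PC3-minus-DU145 difference of -0.31 ± 0.11 on the log2 scale (SE). It was lower in both PC3 pairs and higher in both DU145 pairs, against 9.49% of tested genes, though the last fold (0.04 with circ0004592) was -0.0013 when scaled by total counts. SNHG15 had -0.32 ± 0.15, and GAS5 had -0.45 ± 0.22. The SNHG6 difference was past the threshold with no filter (-0.37) and with a filter of 5 CPM (-0.35), fits in which 2431 and 2190 genes passed. With 6 groups it was -0.31. Without 1 DU145 circRNA library it was -0.38 (circ0003553 left out) and -0.27 (circ0004592 left out). Without circ0003553 in DU145 the difference was 0.46 for SNHG1 and 0.79 for SNHG12. Without circ0004592 in DU145 it was -0.73 for GAS5 and -0.27 for ZFAS1. Such fits leave 1 circRNA library in DU145, so only the sizes are given. For SNHG8 the response in PC3 minus that in DU145 was 0.08 ± 0.13.

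Between the circRNA libraries of DU145 each of the 10 genes differed more, on the log2 scale, than between those of PC3, as tested genes did at the median (0.12 in PC3 and 0.19 in DU145). The PC3 ratio of circ0003553 to circ0004592 was 1.11 for GAS5, 0.795 for SNHG12 and 0.819 for SNHG1. SNHG12 was 1.70-fold, GAS5 1.57-fold and SNHG1 1.50-fold as high with circ0003553 as with circ0004592 in DU145. These 3 were the members at least 0.5 (log2) higher with circ0003553, against 7.46% of tested genes, and SNHG8 was 1.10-fold. GAS5, ZFAS1 and SNHG12 were above their control with circ0003553 and below it with circ0004592, a direction shared by 24.5% of tested genes. The DU145 controls of the same arms differed by 0.935-fold for GAS5, 0.947-fold for SNHG12 and 0.946-fold for SNHG1. Each is 1 library against 1 and has no replicate check.

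The lines themselves differed, in a comparison that the choice of genes did not use. With the control plasmid, 6 of the 10 genes were lower in PC3 than in DU145 by edgeR's quasi-likelihood test (SNHG1, SNHG5, SNHG7, SNHG15, GAS5 and ZFAS1), against 38.8% of tested genes. SNHG8 and SNHG16 were higher in PC3, against 39.2% of tested genes, and SNHG6 and SNHG12 did not pass. With that background, a line difference in 8 of 10 genes is close to what the tested genes show as a whole.

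SNHG8 was 1.98-fold higher in PC3 (log2 0.99 ± 0.09, SE; edgeR adjusted p = 3.35e-08), with 41.6 and 43.3 CPM in PC3 controls against 22.1 and 20.7 CPM in DU145 controls. SNHG16 was 1.87-fold higher in PC3 (0.91 ± 0.09; edgeR adjusted p = 6.56e-08). The largest differences were in the other direction. GAS5, at 9.92 and 10.5 CPM in PC3 controls against 35.4 and 37.9 CPM in DU145 controls, had a log2 difference of -1.84 ± 0.16 (edgeR adjusted p = 9.31e-09). SNHG5 had -1.80 ± 0.09 (8.23e-12, the same test), SNHG7 -1.68 ± 0.11 and SNHG1 -1.42 ± 0.14. SNHG15 with -1.04 ± 0.10 and ZFAS1 with -0.57 ± 0.09 followed. SNHG6 differed by 0.08 ± 0.08 (edgeR adjusted p = 0.399) and SNHG12 by -0.21 ± 0.18 (edgeR adjusted p = 0.306). The 8 calls held without any 1 of the 8 libraries.

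**Figure D3:**
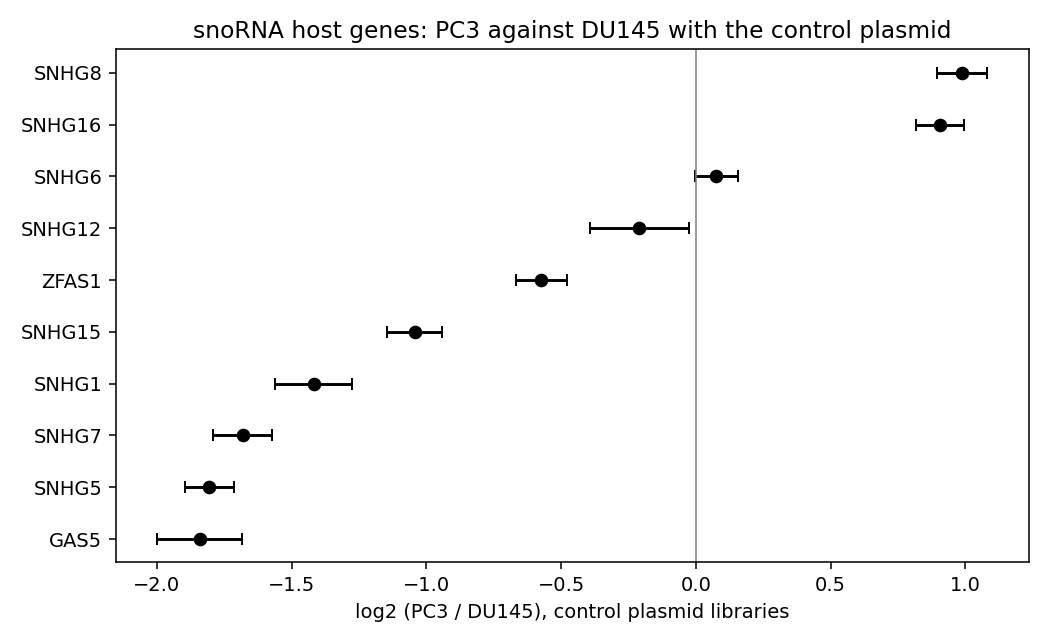
log2 ratio of PC3 to DU145 in the control plasmid libraries (2 per line) for the 10 genes, with the SE of the edgeR fit as horizontal bars. SNHG8 and SNHG16 lie near 1 and GAS5 and SNHG5 near -1.8, with SNHG6 and SNHG12 closest to 0.

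Per exonic length, as the authors' RPKM, SNHG6 was the most abundant of the 10 in the controls of both lines, with a mean of 132 in PC3 and 125 in DU145, followed by ZFAS1 with 60.5 and 89.7. In PC3 SNHG8 was the third with 46.5 RPKM, then SNHG5 with 10.95, SNHG16 with 10.3, SNHG1 with 5.77, SNHG15 with 3.92, GAS5 and SNHG12 with 2.85 each and SNHG7 with 1.83. The control ranges of SNHG5 and SNHG16 overlapped, as did those of GAS5 and SNHG12, while the other neighbours in that order did not. In DU145 SNHG5 was the third with 38.1 RPKM and SNHG8 the fourth with 23.4, then SNHG1 with 15.4, GAS5 with 10.2, SNHG15 with 8.06, SNHG7 with 5.85, SNHG16 with 5.47 and SNHG12 with 3.28, with no overlap between neighbours. With 2 controls a line, these ranges are rough. SNHG8 in DU145 went to 14.4 ± 1.5 RPKM with the circRNAs, against 23.4 ± 1.2 RPKM in controls (SD, n = 2 each).

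The snoRNAs themselves were hardly measured. Of 35 snoRNAs listed for the 10 hosts, 23 had an entry in the tables, 5 were abundant enough to test, and the highest count in a library was 159. Of the 23, 18 overlap an annotated exon of their own host, so that reads of the host transcript can fall on them. By edgeR 0 of the 5 passed for the circRNAs in either line (at an unadjusted p under 0.05, 1 in PC3 and 0 in DU145, and 0 by DESeq2 and by limma in both). Between the lines, SNORD26 in SNHG1 (log2 -2.42 ± 0.35, edgeR adjusted p = 7.19e-06) and SNORA17A in SNHG7 (-1.24 ± 0.26, edgeR adjusted p = 3.01e-04) were lower in PC3. With 38.8% of all tested genes lower in PC3, 2 of 5 is near the background. Library products were selected by length, per the labels' protocols, and the part of this in the snoRNA counts was not tested. SNORA17A had the same counts as an entry named SNORA17.

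Exons of 5 of the hosts overlap a gene on the opposite strand: ZFAS1 with ZNFX1, SNHG6 with MCMDC2, SNHG7 with FAM69B, SNHG12 with TRNAU1AP and GAS5 with GAS5-AS1. SNHG8 has no such partner. The strand setting of the counting is not given in the sources used here. ZNFX1, an interferon-induced helicase-like protein that senses viral RNA, rose in PC3 to 1109 and 989 CPM with the circRNAs, against 230 CPM in both controls (log2 2.19, edgeR adjusted p = 6.08e-12), while DU145 had 311 and 361 CPM against 324 and 321 CPM. ZFAS1 shares 249 exon bases with it and had 127 and 125 CPM in the same PC3 circRNA libraries, against 131 and 137 CPM. MCMDC2, FAM69B and TRNAU1AP had 2.63 to 12.3 CPM in all 8 libraries and did not pass in either line, and GAS5-AS1 had at most 18 counts.

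Of 15 other noncoding snoRNA hosts that could be tested, 5 fell and 0 rose in PC3 by edgeR's quasi-likelihood test, and 0 changed in DU145 (3 there at an unadjusted p under 0.05, and 0 by DESeq2 and by limma). Of all tested genes, 9.19% fell and 11.2% rose in PC3, and 0.515% fell and 0.532% rose in DU145. The median log2 fold was -0.26 in PC3 and -0.01 in DU145, against -0.01 and 0.00 over all tested genes. DANCR, also known as SNHG13, had 3.06 and 3.37 CPM with the circRNAs in PC3 against 7.69 and 5.66 CPM (log2 -1.05 ± 0.18, edgeR adjusted p = 2.90e-04). SNHG14, the host of large imprinted snoRNA clusters, had 38.1 and 35.9 CPM against 56.0 and 57.4 CPM in PC3 (-0.62 ± 0.09, edgeR adjusted p = 5.50e-05). LRRC75A-AS1, also known as SNHG29, had 73.0 and 76.02 CPM against 109 and 111 CPM (-0.57 ± 0.08, edgeR adjusted p = 3.70e-05). SNHG18 had 0 counts in all 4 DU145 libraries, so its fold there carries no information. C6orf48 (-0.35) and EPB41L4A-AS1 (-0.31) were the other two. The C6orf48 call ended without either PC3 circRNA library (-0.33 and -0.41) or the STK3-arm control (-0.25).

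In DU145, DANCR had 6.61 and 6.92 CPM with the circRNAs against 5.99 and 5.87 CPM, SNHG14 had 32.4 and 28.9 CPM against 25.4 and 25.9 CPM, and LRRC75A-AS1 had 68.8 and 66.1 CPM against 61.4 and 63.5 CPM. The responses of these 3 genes differed between the lines by the interaction term, with PC3-minus-DU145 values of -1.24 ± 0.24 for DANCR (edgeR adjusted p = 0.00179), -0.88 ± 0.13 for SNHG14 (1.04e-04, the same test) and -0.68 ± 0.11 for LRRC75A-AS1 (3.95e-04). All 3 were lower in both PC3 circRNA libraries and higher in both DU145 circRNA libraries than in any control of the line. SNHG8 was lower in both lines.

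Of 32 protein-coding hosts, 10 fell and 4 rose in PC3 by edgeR, and 0 fell and 1 rose in DU145, with median log2 folds of -0.17 and 0.03. Beside this stand 9.19% of all tested genes that fell and 11.2% that rose in PC3, and 0.515% and 0.532% in DU145, so the rises in PC3 were near the background. Ribosomal protein genes made up the named falls in PC3. RPL4 had 610 and 624 CPM with the circRNAs against 862 and 900 CPM (log2 -0.51 ± 0.08, edgeR adjusted p = 1.42e-04) and RPL13A -0.47 ± 0.09. CWF19L1, host of SNORA12, rose in PC3 by 0.52 ± 0.10 (edgeR adjusted p = 7.85e-04). The 1 rise in DU145 was HSPA8, a constitutive chaperone and host of the SNORD14 group, with 1051 and 1271 CPM against 752 and 785 CPM (0.60 ± 0.09, edgeR adjusted p = 0.00368). HSPA8 had 672 and 654 CPM against 815 and 810 CPM in PC3. Its DU145 call ended without either DU145 control (0.57 and 0.63).

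Of 14 translation genes with a 5′TOP start that are not ribosomal proteins, 5 fell and 0 rose in PC3, and 0 changed in DU145 (1 at an unadjusted p under 0.05, and 0 by DESeq2 and by limma). The background was 9.19% falling and 11.2% rising in PC3, and 0.515% and 0.532% in DU145. The median log2 fold was -0.19 in PC3 and 0.08 in DU145. EIF3L, a subunit of an initiation factor, had 53.4 and 63.1 CPM in PC3 against 86.1 and 88.2 CPM (-0.58 ± 0.09, edgeR adjusted p = 1.19e-04). The elongation factor genes EEF1G, with 980 and 964 CPM against 1342 and 1398 CPM (-0.50 ± 0.09), and EEF1A1 (-0.41 ± 0.08) fell as well, as did PABPC1 (-0.30) and TPT1 (-0.30). PABPC1 was not past the threshold without circ0003553 (-0.27), the RCAN3-arm control (-0.31) or the STK3-arm control (-0.33) of PC3.

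Of 17 NMD and exon junction factors, 4 rose and 0 fell in PC3, and 0 changed in DU145 (4 at an unadjusted p under 0.05, and 0 by DESeq2 and by limma). Over all tested genes, 11.2% rose and 9.19% fell in PC3, and 0.532% and 0.515% in DU145. The median log2 fold was 0.16 in PC3 and 0.00 in DU145. XRN1, the exonuclease that degrades uncapped RNA from the 5′ end, had 123 and 110 CPM in PC3 against 30.1 and 28.8 CPM (1.98 ± 0.11, edgeR adjusted p = 1.57e-10), and 51.4 and 40.3 CPM in DU145 against 44.5 and 45.5 CPM. UPF3B (0.34) and CASC3 (0.32), both of the exon junction branch, were among the others that rose. UPF3B was not past the threshold without circ0003553 (0.26) or either control (0.32 and 0.31) of PC3, and CASC3 ended in 6 of the 8 fits that leave out 1 library (0.21 to 0.39). Whether these factors have a part in the levels of the hosts was not tested.

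Of 18 proteins of snoRNA particles and their assembly, 2 rose and 0 fell in PC3, and 0 changed in DU145 (1 at an unadjusted p under 0.05, and 0 by DESeq2 and by limma). With 11.2% of all tested genes rising in PC3, this count is at the background and is no result about the list. NOP58, a core protein of C/D particles and itself a snoRNA host, had 237 and 236 CPM against 177 and 181 CPM in PC3 (0.40 ± 0.08, edgeR adjusted p = 0.00129). NOLC1, a nucleolar chaperone of both classes, had 428 and 384 CPM against 328 CPM in both controls (0.31 ± 0.09, edgeR adjusted p = 0.0269), a call that ended in 6 of the 8 fits without 1 library (0.21 to 0.37). DKC1, NOP56 and NOP58 stand in both this list and that of coding hosts.

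**Figure D4:**
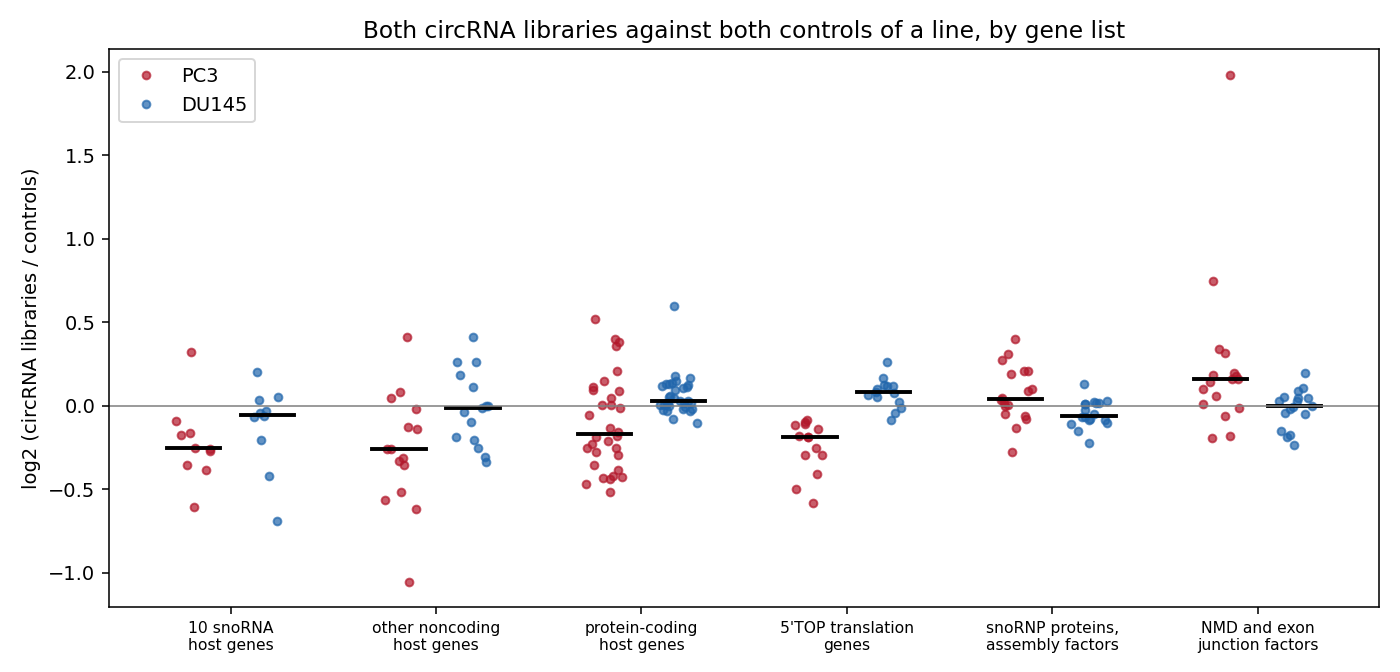
log2 ratio of both circRNA libraries to both controls in PC3 (red, left in each group) and DU145 (blue) for the tested genes of 6 lists, 1 point a gene, with the list median as a black bar. SNHG18, with 0 counts in DU145, is drawn at 0 there. The medians of the other noncoding hosts and of the 5′TOP genes are at -0.26 and -0.19 in PC3, and XRN1 is the point near 2.

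Of the 10024 genes with a mean of at least 10 CPM, 5 were named for the closest match to SNHG8 over the 8 libraries, by Pearson correlation of log2 CPM centred within each line. They were PALM3 (r = 0.993), which encodes a paralemmin, SCD (0.984), the stearoyl-CoA desaturase, SHANK2 (0.984), a scaffold protein gene, NBPF1 (0.983) and SQLE (0.978), the squalene epoxidase. PALM3 and SHANK2 were lower by similar amounts to SNHG8, with log2 folds of -0.82 to -0.66 and -0.66 to -0.60 over the 4 pairs. NBPF1 belongs to a family of near-identical copies, so its counts are uncertain. Among the other hosts the same measure was 0.867 for SNHG5, 0.811 for SNHG1, 0.718 for SNHG15, 0.623 for SNHG7, 0.592 for SNHG16, 0.417 for SNHG6, 0.252 for ZFAS1, 0.154 for GAS5 and -0.08 for SNHG12. The points share libraries and the split into circRNA and control, so these values describe likeness only.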

How the data were processed

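Per the labels, ribosomal RNA was depleted and stranded libraries with 8-base molecular identifiers were read as pairs of 150 bases. Per the submitters' processing notes, the tools were Trimmomatic 0.36, featureCounts from Subread 1.5.1 and edgeR 3.12.1, on hg38. The aligner, annotation release, strand setting and use of the identifiers are not given in the sources used here. The authors deposited raw read counts per gene and, beside them, RPKM (counts scaled by exonic length and library total) in 1 pair of tables per arm. A gene listed in 1 table only (5511 genes, at most 14 counts) was given 0 in the other.

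The tests used the deposited counts: TMM scaling, genes with at least 1 CPM in at least 2 libraries (17869), edgeR 4.0.16 quasi-likelihood with 4 groups of line and plasmid kind (2 libraries each, 4 residual degrees of freedom) in R 4.3.3, Benjamini-Hochberg adjusted over all tested genes, threshold 0.05. An SE is the absolute log2 fold divided by the square root of F. Pair folds are log2 values with a prior count of 2, computed from the deposited counts. Even numbers made up 64.9% to 66.1% of counts from 1 to 20, so intervals use read pairs (counts divided by 2) and cover counting error only.

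The 10 genes and all gene lists were chosen with earlier results of these data known. Named were the 10 genes, RCAN3, STK3, up to 4 called members of each list by absolute fold, overlapping genes, snoRNAs, and the 5 genes most like SNHG8. Some results of the listed genes are not reported here. EPB41L4A-AS1 and TPT1 complete counts of 5 and were chosen after their values were seen. Alternatives were DESeq2 1.42.0, its size factors, other filters, 6 groups, the arm as block, limma 3.58.1 on RPKM (log2 after adding 0.1) and each library left out. The fits were tested on simulated counts with known changes. The controls of a line differed beyond counting noise, with a mean chi-square per gene of 2.18 in PC3 and 2.34 in DU145 (1 for counting noise alone), and were kept as 2 samples.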

Additional observations from a re-analysis of the deposited data

Results flagged for a closer look

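These results were picked out because the circRNA response differed between the lines by the interaction term of edgeR (adjusted over all tested genes). Each value is the PC3 response minus the DU145 response on the log2 scale. All of the genes come from the lists beside the 10 hosts, of which 0 were picked out. Among noncoding hosts these were DANCR (-1.24), SNHG14 (-0.88), LRRC75A-AS1 (-0.68) and SNHG17 (0.66). SNHG17 had 7.26 and 9.32 CPM with the circRNAs in PC3 against 5.94 and 6.52 CPM, and 15.9 and 13.3 CPM in DU145 against 17.1 and 17.8 CPM.

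Of 32 coding hosts, 10 differed, 9 with the lower and 1 (NOP58) with the higher response in PC3, and the 4 with the largest difference were HSPA8 (-0.89), RPL4 (-0.63), RPL21 (-0.57) and RPL7A (-0.52). Of 14 5′TOP genes, 4 differed, and they were EEF1G (-0.55), EIF3L (-0.54), EEF1A1 (-0.49) and PABPC1 (-0.42). Over all tested genes, 4.9% had the lower and 7.08% the higher response in PC3.

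The NMD factors XRN1 (1.95), UPF3B (0.49) and UPF2 (0.36) had the higher response in PC3, as did the snoRNA particle genes ZNHIT6 (0.41) and NOP58 (0.38) and the ZFAS1 neighbour ZNFX1 (2.13). Several calls ended when 1 library was left out. Those of SNHG17, NOP58, UPF2, ZNHIT6 and PABPC1 each ended in 5 or 6 of the 8 fits that leave out 1 library, those of UPF3B in 4, EEF1A1 and EEF1G in 2 and EIF3L in 1 (without circ0003553 in PC3, at -0.44).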

How the results depend on the processing

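The counts of genes past the threshold depended on how the spread was estimated. With 6 groups (each circRNA of a line apart, 2 residual degrees of freedom) there were 6053 in PC3, 1495 in DU145 and 4355 for the difference of response, against 3644, 187 and 2141 with 4 groups. In DU145, limma on RPKM called 8 genes and edgeR without a filter 377. Leaving out 1 library gave 1844 to 5773 genes in PC3, 8 to 1430 in DU145 and 1237 to 3863 for the difference, while PC3 against DU145 stayed at 12660 to 14603, against 13940 with all. The 8 in DU145 came without either DU145 control, and the rises came without a DU145 circRNA library. Of the 10 hosts, 5 were lower in all 4 pairs, or 1 with a size of at least 0.5 (log2), a setting chosen after the values were seen, and 6, SNHG7 added, when scaled by total counts. Deviations of same-arm libraries correlated at 0.0479 in PC3 and 0.0203 in DU145. Those of the circRNA libraries also hold the difference between the circRNAs, so these values cannot tell if an arm shared a culture or batch. The arm as replicate block gave 3441 genes in PC3, 162 in DU145, 13907 between the lines and 1982 for the difference. Over the 9 hosts other than SNHG8, the interaction term was past the threshold for 2 with no filter (SNHG6 and GAS5), where 2431 genes passed. With 6 groups, where each circRNA group holds 1 library, it was -0.31 for SNHG6, 0.42 for SNHG12 and -0.41 for GAS5. SNHG8 in DU145 lost its call by limma on RPKM (-0.69). Scaling moved the median of all tested genes by at most 0.05 (log2). Counting intervals were wide for the low hosts, as for SNHG7 in PC3 with circ0003553 (0.743-fold, 0.575 to 0.967).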
